A study of Homo sapiens with 18 samples.

Results

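C2H2 zinc finger genes form the most numerous class of human transcription factor genes, and many of them lie on chromosome 19. The members described here are the rows of the deposited count table whose symbol is ZNF, a number and at most 1 trailing letter, and whose locus is on chromosome 19. There were 268 such rows with 263 distinct symbols among 63241 genes. ZNF genes on other chromosomes (301) and the other genes of chromosome 19 (2834) served for comparison.

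RNA was measured by poly(A) sequencing in 18 libraries of 2 prostate cancer cell lines labelled wild type. LNCaP, established from a lymph node metastasis and responsive to androgen, was untreated or received genistein at 10 or 20 µM or baicalein at 10 or 20 µM for 24 h. PC-3, established from a bone metastasis and growing without androgen, was untreated. Each of these 6 groups had 3 libraries. The control libraries are labelled untreated, although the treatment protocol describes a DMSO vehicle. Per its title the study concerned both flavonoids as radiosensitizers for a radioligand of PSMA. Of the 2 drugs, genistein is an isoflavone while baicalein is a flavone, so their phenyl rings sit at different positions of the chromone core. Nothing in the labels names separate cultures as the source of the replicates, so each p-value reflects the spread between libraries, which may be technical.

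Most proteins of the family combine an array of C2H2 zinc fingers, which read DNA, with a KRAB domain at the N-terminus. The KRAB domain binds the scaffold TRIM28, which brings in the histone H3 lysine 9 methyltransferase SETDB1, HP1 proteins and the NuRD complex, and many of the bound sites lie in transposable elements. The genes arose by repeated local duplication and still lie in clusters along the chromosome.

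Of the 268 rows, 264 matched GENCODE 29, with 248 protein-coding genes and 16 pseudogenes. Translated reading frames of 246 members held a median of 12 matches to the C2H2 pattern, from 0 to 36, and 174 of them held a KRAB pattern. The deposited counts were scaled to counts per 1000000 (CPM), and 240 members passed the filter on low counts in the LNCaP fit and 241 in the comparison of the untreated lines, while 4 had no count in any library. Members that passed only through the group where they were high are among these.

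Total counts per library were 10013567 to 18445711. The lines carried their markers: KLK3 was at 1492 ± 135 CPM (SD, n = 3) in untreated LNCaP and 1.67 ± 0.612 in PC-3, and VIM was at 6.14 and 1825 CPM. Mitochondrially encoded genes took 4.15 to 6.35% of counts in 15 libraries and 10.5 to 14.5% in the 3 libraries with baicalein at 20 µM.

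The sequences below are the promoters of 5 members near the end of the short arm, shown because these neighbours had the largest median rise of any block of members with baicalein. They are RefSeq windows on GRCh38.p14, from 250 bases before to 50 bases after the gene's start, written 5′ to 3′. Capitals mark matches to CCAAT or GGGCGG, the letters of the NF-Y box and of the GC box bound by Sp factors, on either strand.

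ZNF554, chr19:2819618-2819917, plus strand: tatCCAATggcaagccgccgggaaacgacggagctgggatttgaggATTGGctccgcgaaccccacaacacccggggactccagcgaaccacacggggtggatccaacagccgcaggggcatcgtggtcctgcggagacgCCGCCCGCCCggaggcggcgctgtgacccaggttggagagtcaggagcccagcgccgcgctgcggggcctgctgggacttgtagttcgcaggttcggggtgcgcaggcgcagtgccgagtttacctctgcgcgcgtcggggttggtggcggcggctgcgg
ZNF555, chr19:2841225-2841524, plus strand: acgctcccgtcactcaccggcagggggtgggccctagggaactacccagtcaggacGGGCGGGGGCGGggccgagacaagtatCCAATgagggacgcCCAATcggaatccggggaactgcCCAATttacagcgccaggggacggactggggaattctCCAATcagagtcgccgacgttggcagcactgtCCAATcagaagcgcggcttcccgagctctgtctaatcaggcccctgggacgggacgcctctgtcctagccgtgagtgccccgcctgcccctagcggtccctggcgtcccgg
ZNF556, chr19:2867085-2867384, plus strand: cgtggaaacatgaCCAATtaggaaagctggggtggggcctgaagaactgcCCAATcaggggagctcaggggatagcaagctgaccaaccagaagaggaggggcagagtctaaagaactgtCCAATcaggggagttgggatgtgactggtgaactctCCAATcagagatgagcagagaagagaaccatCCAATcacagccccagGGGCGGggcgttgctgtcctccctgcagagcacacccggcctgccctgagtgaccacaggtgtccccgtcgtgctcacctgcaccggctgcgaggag
ZNF57, chr19:2900678-2900977, plus strand: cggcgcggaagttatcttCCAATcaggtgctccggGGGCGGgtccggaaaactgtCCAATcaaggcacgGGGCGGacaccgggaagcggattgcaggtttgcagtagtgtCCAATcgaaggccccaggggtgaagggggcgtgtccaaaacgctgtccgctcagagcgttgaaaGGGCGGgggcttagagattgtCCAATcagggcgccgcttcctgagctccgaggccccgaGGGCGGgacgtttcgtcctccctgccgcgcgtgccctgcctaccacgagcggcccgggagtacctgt
ZNF77, chr19:2944922-2945221, minus strand: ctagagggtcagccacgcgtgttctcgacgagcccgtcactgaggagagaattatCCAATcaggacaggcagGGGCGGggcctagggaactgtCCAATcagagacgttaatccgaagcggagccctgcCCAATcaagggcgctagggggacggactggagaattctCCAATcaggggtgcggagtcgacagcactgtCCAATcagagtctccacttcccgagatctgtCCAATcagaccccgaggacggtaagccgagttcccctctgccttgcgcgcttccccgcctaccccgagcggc

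ZNF555, ZNF556, ZNF57 and ZNF77 held 5, 5, 4 and 6 CCAAT matches in these windows, all on the strand shown. At least 4 matches occurred in 7 of the 268 windows found for members (2.61%) and in 348 of 35116 windows of all genes (0.991%), a cutoff set after the values were seen. The 7 include the windows of ZNF555, ZNF556, ZNF57 and ZNF77. These were picked for their rise, so the higher share of the members rests largely on picked genes and is only a description. Windows were found for 216 of the 263 symbols, some with more than 1 start. Among all member windows 134 of 268 held CCAAT and 64.9% held GGGCGG, against 34.6% and 45.0% of all windows. The ETS-type letters CCGGAAG stood in 40.7% of member windows and 10.3% of all windows, but in 0 of the 6 windows of these 5 genes. Member windows held a median of 20 CpG sites and all windows 14, with lower quartiles of 14 and 4, and the shares were not adjusted for this. Matches of different motifs may share bases, and a match describes the sequence only.

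Untreated LNCaP cells expressed most of the family at a low level. A mean above 1 CPM was reached by 231 members and above 20 CPM by 82, with a median of 10.9 CPM. ZNF146, a protein made almost entirely of zinc fingers, was the most abundant at 192 ± 28.3 CPM (SD, n = 3), or 46.4 CPM per kb of exon. Per kb of exon the next levels were those of ZNF121, reported to bind MYC, at 14.9 CPM per kb and ZNF428 at 14.6 CPM per kb, while the median member had 2.25 CPM per kb.

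Summed over all 268 members, the level in untreated LNCaP was 4746 ± 441 CPM (SD, n = 3). At 10 µM it was 4144 ± 339 for genistein and 4681 ± 744 for baicalein, and genistein 20 µM gave 4289 ± 341. These 3 groups overlapped the untreated libraries. With baicalein at 20 µM the sum was 8536, 6033 and 7319 CPM in the 3 libraries, each above every other LNCaP library. Those same libraries had the high mitochondrial shares, whose part in this sum was not tested. In PC-3 the sum was 3093 ± 163 CPM, below every LNCaP library. In bulk RNA a change in the number of expressing cells and a change in RNA per cell cannot be told apart.

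**Figure D1:**
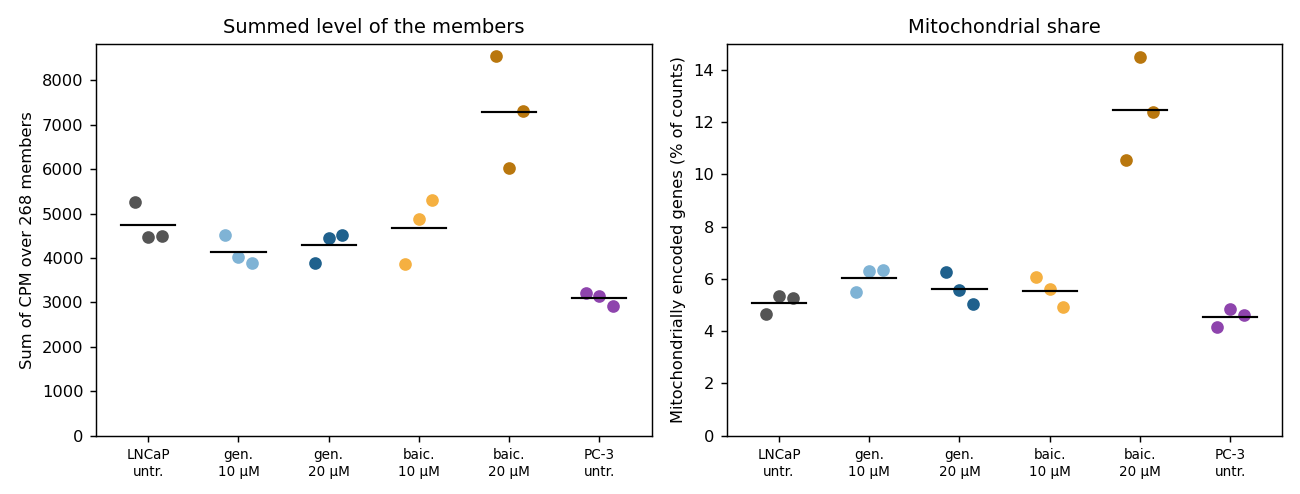
Left, the sum of CPM over the 268 chromosome 19 ZNF genes in each library; right, the percent of counts from mitochondrially encoded genes. Points are libraries and bars are means of 3; the baicalein 20 µM libraries, at 6033 to 8536 CPM, lie above all others in both panels.

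Baicalein at 20 µM raised many of these genes. In edgeR's quasi-likelihood test with Benjamini-Hochberg adjustment over 16985 genes, 94 of 240 members rose and 32 fell, where 29.4% of all genes tested rose and 27.8% fell. The members' shares were 39.2% and 13.3%. Every baicalein library lay above every untreated library in 97 members and below in 40, where this held for 29.1% and 31.5% of all genes. The median log2 fold change was 0.52 over the members and 0.04 over all genes tested. ZNF genes on other chromosomes gave nearly the same picture, with 94 of 234 rising, 33 falling and a median of 0.42. Among the other genes of chromosome 19, 318 of 948 rose and 233 fell, with a median of 0.12. The tested members had a median exon length of 5012 bases and a GC content of 42.2%, against 4302 bases and 48.0% over all genes tested. Without mitochondrially encoded genes in the fit, 92 members rose and 34 fell, with medians of 0.49 over the members and -0.02 over all genes. The called shares of all genes in that fit are not given here. With a trend on length and GC removed, 100 members rose and 41 fell. The medians were then 0.44 over the members and 0.03 over all genes, whose called shares in that fit are not given here.

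The 94 rises ran from 0.37 to 4.03 on the log2 scale and the 32 falls from -0.49 to -2.89. Among members with more than 12 finger matches 37 of 113 rose and 13 fell, and among those with 12 or fewer 57 of 116 rose and 16 fell. With a KRAB pattern 65 of 164 rose and 20 fell, and without it 29 of 65 rose and 9 fell. CCAAT stood in 44 of the 110 promoter windows of members that rose, in 17 of 25 windows of those that fell and in 64 of 117 windows of those not called. None of these splits was tested.

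Genistein at 20 µM changed far fewer. Here 5 of 240 members rose and 15 fell, or 2.08% and 6.25%, where 8.31% of all genes tested rose and 8.12% fell. Every genistein library lay above every untreated library in 16 members and below in 55, where this held for 17.9% and 21.8% of all genes. The median log2 fold change was -0.09 over the members and 0.05 over all genes. Both drug comparisons share the untreated libraries. With the trend over gene length and GC content removed, 8 members rose and 31 fell. The medians were then -0.16 over the members and -0.005 over all genes, whose called shares in that fit are not given here. The count of rises dropped to 2 without untreated replicate 2 or 3, and that of falls to 8 without untreated replicate 2 and 9 without untreated replicate 3.

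**Figure D2:**
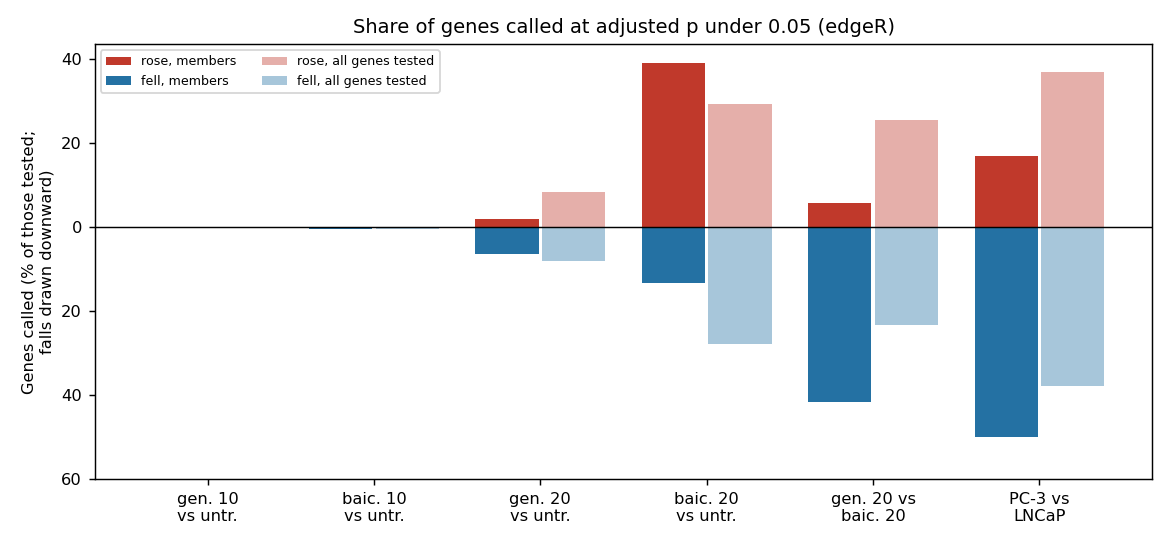
Percent of tested genes called higher (up) or lower (down) at an adjusted p under 0.05 in 6 comparisons, for the chromosome 19 ZNF genes (dark bars) and all genes tested (pale bars). With baicalein 20 µM 39.2% of members rose against 29.4% of all genes; in PC-3 49.8% were lower against 37.9%.

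The 5 genes near the end of the short arm, ZNF554, ZNF555, ZNF556, ZNF57 and ZNF77, lie within chr19:2819868-2944971 and formed the first of 17 blocks separated by gaps of more than 1 Mb between starts. All 5 encode a KRAB pattern and 7 to 15 fingers. With baicalein at 20 µM 5 of 5 rose, and the median log2 fold change of the block, 2.76, was above that of each other block. Genistein at 20 µM raised 3 of 5, and 4 of 5 were lower in PC-3. Of all genes tested, 29.4% rose with baicalein, 8.31% rose with genistein and 37.9% were lower in PC-3.

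ZNF77 was at 8.41, 10.0 and 9.08 CPM in untreated LNCaP, 20.5, 19.8 and 19.6 with genistein 20 µM and 132, 164 and 142 with baicalein 20 µM. The 3 groups did not overlap, while the libraries at 10 µM, 7.75 to 9.30 with genistein and 7.11 to 8.14 with baicalein, stayed near or below the untreated level. The rise was 16.3-fold with baicalein (log2 4.03 ± 0.12 SE, edgeR adjusted p = 1.53e-10) and 2.27-fold with genistein (1.18 ± 0.11, adjusted p = 2.94e-05), and genistein lay below baicalein by 2.85 ± 0.11 on the log2 scale (adjusted p = 3.49e-09). In PC-3 the gene was at 4.17, 3.34 and 4.75 CPM (log2 -1.19 ± 0.18, adjusted p = 0.000826).

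ZNF57, its neighbour, was at 10.6, 12.9 and 9.37 CPM untreated, 25.9, 23.4 and 19.6 with genistein 20 µM and 96.0, 117 and 101 with baicalein 20 µM. Again each group lay wholly above the one before. The log2 changes were 1.12 ± 0.16 with genistein (edgeR adjusted p = 0.000568) and 3.30 ± 0.17 with baicalein (adjusted p = 9.53e-09).

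ZNF555, reported to bind a satellite repeat enhancer in muscle cells, rose from 12.4, 10.5 and 7.53 CPM to 69.1, 61.4 and 69.8 with baicalein (log2 2.76 ± 0.27, edgeR adjusted p = 2.80e-06). With genistein it was at 16.2, 19.1 and 25.1 CPM (1.05 ± 0.26, adjusted p = 0.0176), above every untreated library. That call was lost without untreated replicate 2 or 3 or genistein replicate 3, with an adjusted p of up to 0.0787. ZNF556 rose from 6.54 ± 0.262 to 36.7 ± 4.13 CPM and ZNF554 from 23.4 ± 0.905 to 74.5 ± 28.6 CPM (SD, n = 3) with baicalein. Neither was called with genistein, at log2 0.49 ± 0.36 and 0.30 ± 0.22. In PC-3 ZNF556 was at 0.812, 0.318 and 0.113 CPM, below every LNCaP library.

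**Figure D3:**
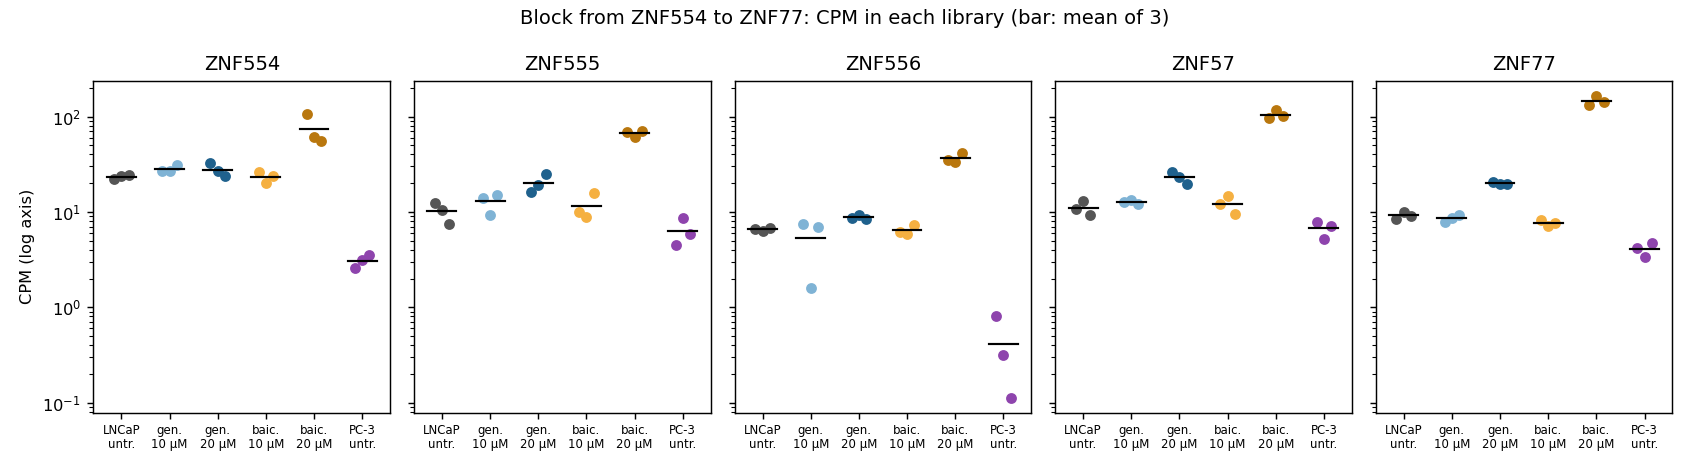
CPM on a log axis of the 5 genes from ZNF554 to ZNF77 in each library, with the mean of each group of 3 as a bar. Baicalein 20 µM libraries lie above all others in each panel, from 33.5 CPM (ZNF556) to 164 CPM (ZNF77).

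Elsewhere on the chromosome, the rule for named genes gave further risers with baicalein at 20 µM. ZNF416 was at 8.82, 10.1 and 9.83 CPM untreated and 35.7, 49.3 and 43.4 with baicalein (log2 2.20 ± 0.13, edgeR adjusted p = 3.59e-08), with no overlap. ZNF460 rose by 2.64 ± 0.33, from 6.35 ± 1.37 to 38.5 ± 14.3 CPM (SD, n = 3). ZNF222 rose by 2.05 ± 0.19 from 3.00 ± 0.126 CPM. ZNF791 was called too, but its untreated libraries spread from 5.23 to 20.7 CPM and its baicalein 10 µM libraries from 10.4 to 52.9.

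ZNF274, which binds the 3′ ends of zinc finger genes and brings SETDB1 to them, was at 57.2, 65.4 and 64.9 CPM untreated and 155, 187 and 154 with baicalein 20 µM (log2 1.44 ± 0.12, edgeR adjusted p = 3.96e-07). With genistein 20 µM it was at 61.7, 61.0 and 50.8 CPM, overlapping the untreated libraries. ZNF93, a repressor of LINE-1 elements, rose by 1.12 ± 0.30 with baicalein (adjusted p = 0.00564), and ZNF382, reported as silenced by methylation in several cancers, rose by 1.25 ± 0.24 (adjusted p = 0.000678). ZNF91, a repressor of SVA elements, was not called, at 72.1 ± 33.8 CPM untreated and 103 ± 32.4 with baicalein (SD, n = 3). ZNF132 rose by 0.82 ± 0.17 (adjusted p = 0.0012) and ZNF473, which takes part in histone pre-mRNA processing, by 0.47 ± 0.15 (adjusted p = 0.0139). ZNF331, a candidate tumour suppressor with imprinted expression, gave 0.80 ± 0.38 and ZNF146 0.69 ± 0.32, neither called. ZNF154 was too low to be tested, at 0.298 ± 0.110 CPM untreated.

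Among the falls with baicalein at 20 µM, ZNF573 had the largest change. It was at 7.07, 6.86 and 6.38 CPM untreated, 3.10, 3.09 and 3.64 with genistein 20 µM and 1.2, 0.723 and 0.715 with baicalein. The groups did not overlap, and the log2 changes were -0.98 ± 0.20 (edgeR adjusted p = 0.00519) and -2.89 ± 0.24 (adjusted p = 4.54e-07). ZNF552 went from 24.4, 29.5 and 29.4 CPM to 7.88, 6.99 and 4.29 (log2 -2.07 ± 0.19), and ZNF813 from 11.6, 12.7 and 10.9 to 2.50, 3.05 and 3.68 (-1.89 ± 0.16). Both pairs of groups stood apart. ZNF233 and ZNF497 fell by 1.53 and 1.6 on the log2 scale.

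ZNF320 and its neighbour ZNF468 moved in opposite directions with baicalein, by -1.05 ± 0.17 and 1.11 ± 0.09. They share over 99% of their 50-base stretches with another gene, each mainly with the other, so reads could be divided between them and both values are uncertain. The rows for ZNF702P (ENSG00000293317) and ZNF321P (ENSG00000293246) also fell, by 2.69 and 2.01, and each symbol has a second row that overlaps it. Among the 193 members that share under 10% of their 50-base stretches, 76 of 171 tested rose with baicalein (44.4%) and 18 fell (10.5%). Among the 71 that share 10% or more, 18 of 65 rose (27.7%) and 11 fell (16.9%). Of all genes tested 29.4% rose and 27.8% fell, and the split was not tested.

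The rule also named members for their falls with genistein at 20 µM. ZNF444, a SCAN domain factor, was at 45.9, 35.7 and 45.9 CPM untreated and 19.9, 20.4 and 18.1 with genistein (log2 -1.07 ± 0.20, edgeR adjusted p = 0.0032). ZNF700 was at 29.2, 26.9 and 28.3 CPM and fell to 15.8, 14.7 and 17 (-0.77 ± 0.11, adjusted p = 0.00079). Neither gene's groups overlapped. ZNF676 fell by 1.14 ± 0.25, from 2.68 ± 0.1 CPM (SD, n = 3). With baicalein 20 µM, set against the same untreated libraries, ZNF676 gave -0.90 (adjusted p = 0.00908), ZNF444 gave -0.55 (adjusted p = 0.0271, up to 0.287 under the alternatives) and ZNF700, which was not called, gave -0.19. ZNF737 was named by the rule too, at 57.2, 36.8 and 45.2 CPM untreated and 5.53, 5.85 and 6.85 with genistein 20 µM, but it also swung from 5.68 to 63.6 CPM within the baicalein 10 µM group, and leaving out any 1 of the 6 libraries ended the call (adjusted p up to 0.103). The fall of ZNF66 (-0.87) was likewise lost without any 1 of the 6 libraries (adjusted p up to 0.121). ZNF358 rose by 1.05 ± 0.29, and that call was lost without any 1 untreated library or genistein replicate 2 (adjusted p up to 0.126).

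At 10 µM almost nothing was called. Genistein gave 0 rises and 0 falls among 240 members, where 0.0353% and 0.0765% of all genes were called by edgeR. At an unadjusted p under 0.05 there were 8 and 12, and DESeq2 called 0 and 0. Baicalein gave 0 rises and 1 fall, where 0.0883% and 0.312% of all genes were called. The fall was ZNF587B, from 32.4, 31.7 and 33.4 CPM to 24.6, 22.5 and 22.1 (log2 -0.45 ± 0.09, edgeR adjusted p = 0.0489), and the call was lost without any 1 untreated library or without baicalein replicate 2 or 3 (adjusted p up to 0.228). At 20 µM the gene was lower with both drugs, by 0.66 ± 0.09 and 0.82 ± 0.09.

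The 2 doses of each drug were also compared directly. For genistein 4 members were higher and 10 lower at 20 µM, where 5.59% and 7.63% of all genes were. ZNF77 (1.26) and ZNF57 (0.88) were among the 4, and ZNF444 (-0.99) was the lowest. For baicalein 93 were higher and 30 lower, where 26.8% and 27.5% of all genes were, led by ZNF77 at 4.25 and ZNF57 at 3.11. Much the same held for ZNF genes on other chromosomes, of which 95 of 234 were higher and 24 lower.

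At the matched dose of 20 µM, 14 members were higher and 100 lower with genistein than with baicalein, where 25.4% and 23.3% of all genes were. The median difference was -0.59 over the members and 0.02 over all genes. Much the same held for ZNF genes on other chromosomes, with 18 of 234 higher, 93 lower and a median of -0.49. ZNF266 was at 16.2, 17.6 and 19.5 CPM with genistein and 40.4, 57.7 and 52.7 with baicalein, on opposite sides of the untreated 31.7, 31.8 and 29.8. Of the 126 members not called different, 47 had a 95% interval of the difference within 2-fold in both directions, and for the rest the data leave a larger difference possible. At 10 µM genistein and baicalein differed in 0 members in either direction, where 0.00589% of all genes were higher and 0.0% lower (unadjusted p under 0.05 in 6 and 13, DESeq2 0 and 0). The interval lay within 2-fold for 148 of 240.

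PC-3 cells expressed less of the family than LNCaP cells. In edgeR's test 41 of 241 members were higher and 120 lower in PC-3, or 17% and 49.8%, where 37.0% of 17259 genes were higher and 37.9% lower. Every PC-3 library lay above every LNCaP library in 46 members and below in 125, where this held for 38.9% and 39.5% of all genes. The median log2 difference was -0.60 over the members, -0.02 over all genes and -0.42 over ZNF genes of other chromosomes, of which 107 of 240 were lower and 43 higher. Among the other genes of chromosome 19, 396 of 960 were higher and 337 lower. Members with a KRAB pattern were lower in 92 of 165 and higher in 19, and those without it were lower in 22 of 66 and higher in 20. The difference between these shares was not tested.

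**Figure D4:**
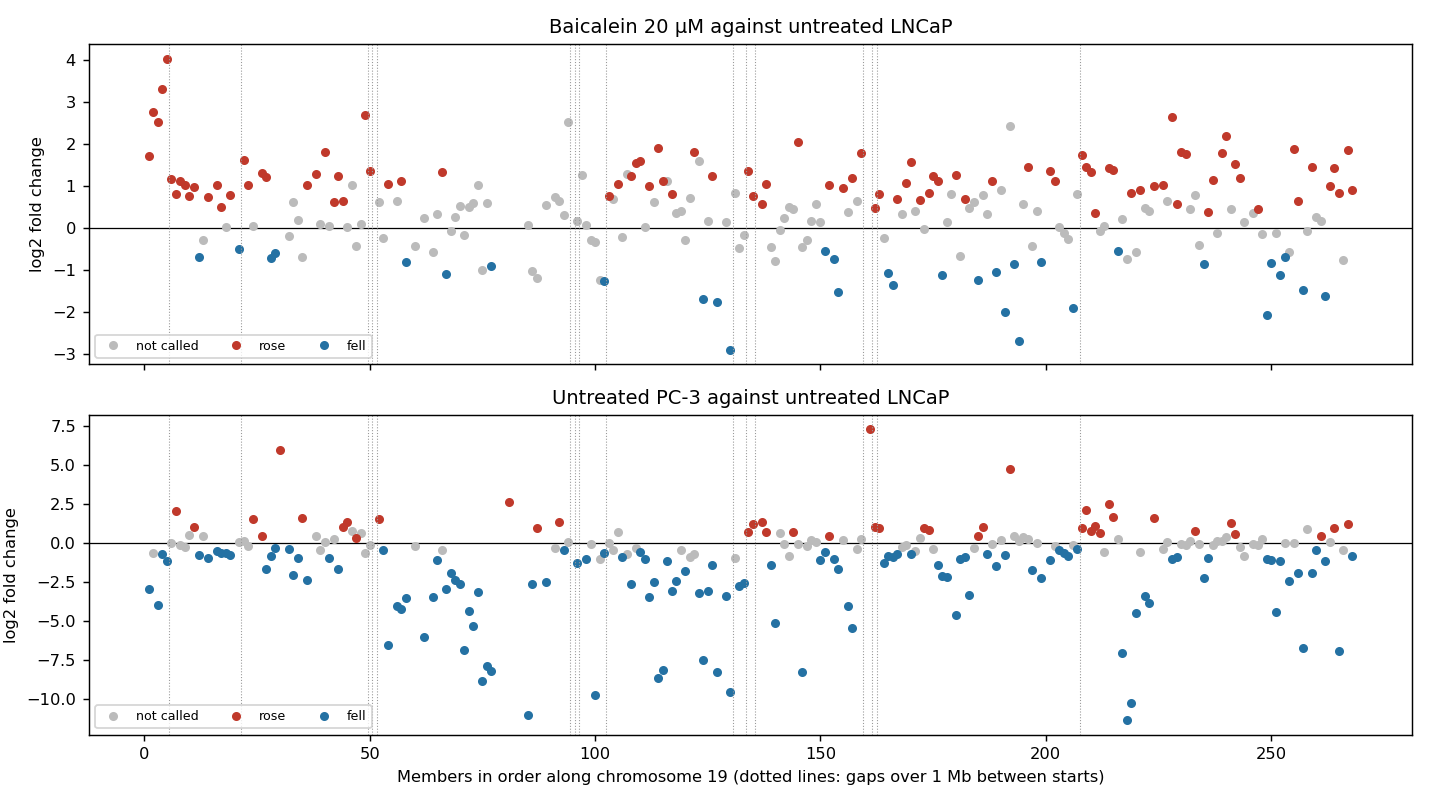
Log2 fold change of each tested member, in order along chromosome 19, with baicalein 20 µM (top) and in PC-3 (bottom), both against untreated LNCaP; colours mark calls and dotted lines separate the 17 blocks. The first 5 points rise with baicalein by 1.71 to 4.03, and the block from ZNF101 to ZNF254 has a median of -2.65 in PC-3.

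The PC-3 counts are given here for 3 of the blocks, and differences between blocks were not tested. In the block from ZNF101 to ZNF254, on the short arm beside the centromere between 19.7 and 24.1 Mb, 23 of 31 tested members were lower and 4 higher, with a median of -2.65. Baicalein at 20 µM raised 3 and lowered 3 of 30 there, with a median of 0.33. The sum over that block was 1034, 635 and 717 CPM untreated and 1540, 638 and 1140 with baicalein, so the groups overlapped. In the block from ZNF565 to ZNF573, 19 of 27 were lower and 0 higher in PC-3 (median -1.79), and with baicalein 11 rose and 3 fell. In the block at the end of the long arm, from ZNF628 to ZNF446, 22 of 59 were lower and 14 higher in PC-3, and with baicalein 29 rose and 8 fell. The share lower in PC-3 was 74.2%, 70.4% and 37.3% in these blocks, the last of them near the 37.9% of all genes tested. With baicalein the shares that rose were 10.0%, 40.7% and 49.2%, where 29.4% of all genes tested rose. Those that fell were 10.0%, 11.1% and 13.6%, where 27.8% of all genes fell.

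Some members were nearly absent from PC-3. Of 231 members with at least 1 CPM in untreated LNCaP, 15 had 3 counts or fewer over all PC-3 libraries (6.49%), and of all 14931 such genes 822 did (5.51%). The shares are close, and 4.80% of such ZNF genes on other chromosomes did the same. Among the 15 is a row of ZNF542P that jumped between the libraries of each baicalein group. That symbol has a second row, so the near absence of ZNF542P is uncertain. ZNF728 was at 21.7, 15.1 and 19.3 CPM in LNCaP with 1005 counts and had 0 counts in PC-3, so it was at least 189-fold lower, set against a floor of 3 counts over the group. In the same way ZNF582 was at least 110-fold, ZNF599 at least 79.5-fold, ZNF573 at least 67.9-fold and ZNF208, with 36 fingers, at least 41.9-fold lower. The LNCaP libraries of ZNF208 spread from 1.41 to 9.83 CPM, and its call was lost without PC-3 replicate 3 or without the filter (adjusted p up to 0.0906). The bounds cover counting error only. ZNF132, reported as methylated in prostate cancer, had 2 counts in PC-3 against 487, a ratio of 137 (95% counting interval 37.8 to 1137).

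ZNF829 and ZNF568 start 25 bases apart on opposite strands, and both were near 0 in PC-3. ZNF829 had 910 counts in LNCaP and 1 in PC-3, a ratio of 513 (95% counting interval 91.9 to 20299). ZNF568, whose mouse relative represses a placental Igf2 promoter, had 1633 and 3, a ratio of 307 (105 to 1491). With baicalein at 20 µM they rose by 1.90 ± 0.32 and 1.12 ± 0.27 on the log2 scale (edgeR adjusted p = 0.000233 and 0.00377). Their shared promoter region is shown by a RefSeq window of ZNF829, which holds no CCAAT or GGGCGG and 1 match to CCGGAAG on the opposite strand, in capitals.

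ZNF829, chr19:36916242-36916541, minus strand: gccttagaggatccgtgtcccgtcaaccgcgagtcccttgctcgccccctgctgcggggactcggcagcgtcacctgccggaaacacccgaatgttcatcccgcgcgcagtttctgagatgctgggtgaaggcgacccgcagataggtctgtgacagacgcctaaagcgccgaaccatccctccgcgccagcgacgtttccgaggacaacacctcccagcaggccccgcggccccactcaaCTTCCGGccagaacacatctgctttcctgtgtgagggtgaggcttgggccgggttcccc

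Fewer members went the other way. ZNF581 was at 12.3, 9.06 and 7.30 CPM in LNCaP and 59.9, 37.3 and 67.1 in PC-3 (log2 2.50 ± 0.29, edgeR adjusted p = 0.000228). ZNF579 was at 12.3, 13.3 and 12.4 CPM and 48.3, 56.0 and 56.8 (2.07 ± 0.11, adjusted p = 4.43e-06), and ZNF787 at 33.9, 32.0 and 34.2 and 92.6, 108 and 115 (1.63 ± 0.11, adjusted p = 1.47e-05). None of the 3 holds the KRAB pattern, and in each the lines did not overlap. ZNF439 had 87 counts in PC-3 and 2 in LNCaP, a ratio of 77.1 (95% counting interval 20.7 to 647), and ZNF114 had 43 and 0, at least 25.4-fold higher.

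Of the 9 members listed for a known function, 6 were lower in PC-3, 1 was higher, 1 was not called and ZNF154 was not tested, where 49.8% of the members tested and 37.9% of all genes were lower. ZNF93 was at 8, 6.86 and 6.67 CPM in LNCaP and 0.232, 0.239 and 0.678 in PC-3 (log2 -4.27 ± 0.35, edgeR adjusted p = 3.64e-05). ZNF91 was lower by 2.50 ± 0.37 (adjusted p = 0.000738) and ZNF274 by 1.93 ± 0.14 (adjusted p = 1.96e-05). ZNF382 was lower by 2.65 ± 0.23, ZNF473 was higher by 1.02 ± 0.14, and ZNF146 was not called (-0.44 ± 0.22). ZNF331 was lower by 0.43 ± 0.15 (adjusted p = 0.0362), and 7 of the 12 alternatives ended that call (adjusted p up to 0.11).

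**Figure D5:**
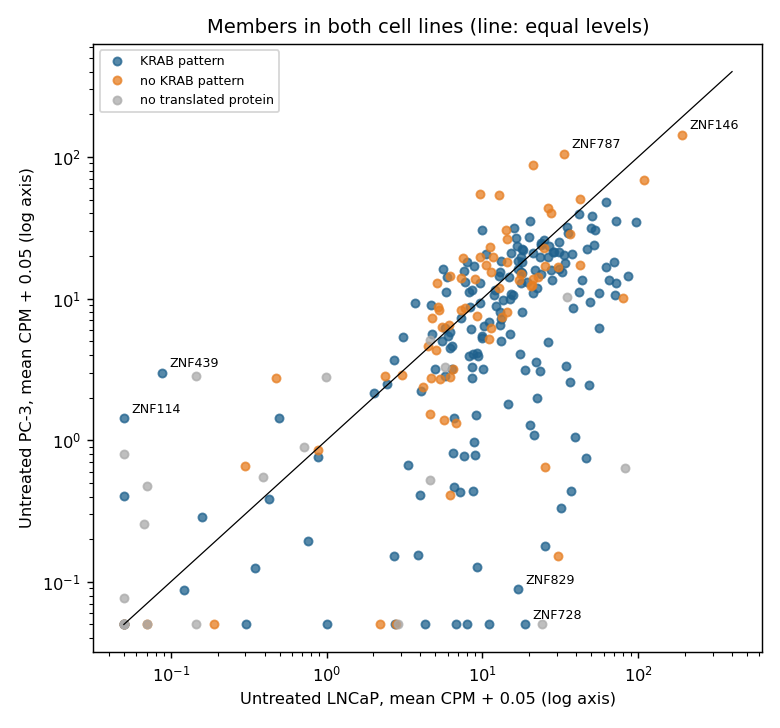
Mean CPM plus 0.05 of each member in untreated LNCaP (x) and untreated PC-3 (y), both on log axes, with colours for the KRAB pattern and a line at equal levels. ZNF728 and ZNF829 sit at the bottom edge at 18.7 and 16.9 CPM in LNCaP, and ZNF439 and ZNF114 at the left edge at 2.95 and 1.38 CPM in PC-3.

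A list of 24 genes, all tested, held TRIM28, proteins it brings in and other genes of chromatin and DNA methylation. UHRF1, DNMT1 and DAXX are among the latter, so the counts do not describe KRAB recruitment alone. With baicalein at 20 µM 3 rose and 11 fell, where 29.4% and 27.8% of all genes did, and the median log2 change of the list was -0.21. UHRF1, which maintains DNA methylation with DNMT1, fell by 3.75 ± 0.27, from 17.2 ± 1.31 to 1.23 ± 0.300 CPM (SD, n = 3), and DNMT1 fell by 1.43 ± 0.12. CBX5, an HP1 protein, fell by 1.6 ± 0.09, and the NuRD helicases CHD3 and CHD4 fell by 1.34 ± 0.15 and 1.02 ± 0.12. TRIM28 itself was at 220.4 ± 2.00 CPM untreated and 155 ± 24.8 with baicalein (-0.47 ± 0.12, edgeR adjusted p = 0.0043), and SETDB1 rose by 0.36 ± 0.14 (adjusted p = 0.0484). DAXX, an ATRX partner, rose by 1.89 ± 0.15.

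Genistein at 20 µM raised 1 of the 24, DAXX, and lowered 2, DNMT1 and UHRF1, where 8.31% and 8.12% of all genes rose and fell. At 10 µM each drug lowered UHRF1 alone of the list (log2 -1.51 with genistein and -1.58 with baicalein). In PC-3 10 were higher and 10 lower than in LNCaP, where 37.0% and 37.9% of all genes were. TRIM28 was higher by 0.31 (adjusted p = 0.0216) and SETDB1 lower by 0.98 (edgeR adjusted p = 0.0002).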

How the data were processed

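The deposited table holds whole-number counts per gene and library made by the authors. The build was GRCh38 and the tools were featureCounts 1.6.4, STAR 2.7.6a, DESeq2 1.20.0 and fastp, per the submitters' processing notes. The annotation release, strand setting and handling of reads with several matches are not given in the sources used here, and the labelled library kit (NEBNext Ultra) does not mark strand, so counts of overlapping, antisense or near-identical genes are uncertain. Of the members, 205 overlap another locus, 148 on the opposite strand. Columns were assigned by the cell line, drug, dose and replicate in their headers. The 18 FPKM columns and the authors' 13 coded comparisons were not used, because their headers do not identify samples uniquely.

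Counts were fitted with edgeR 4.0.16 in R 4.3.3 (quasi-likelihood F test, TMM, default low-count filter, robust) over all genes and adjusted by Benjamini-Hochberg within each comparison, with 0.05 as the limit for a call. The 15 LNCaP libraries shared 1 fit (16985 genes, 10 residual degrees of freedom, biological coefficient of variation 0.235) and the 6 untreated libraries a second (17259 genes, 4 degrees of freedom, 0.208). Levels are CPM on 1 TMM scale over 18 libraries. Fits were tested on simulated data. Folds against a group with 0 counts use a floor of 3 counts over the group, and ratios with 1 to 3 counts carry 95% counting intervals. Without molecular identifiers these cover counting error only. Libraries of a group differed beyond sampling noise (chi-square per degree of freedom 12.0 to 97.6), so none was merged.

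The members, the lists and the rule for named genes were chosen with earlier results of these data known. The rule named 9 members of known function, the 8 most abundant in untreated LNCaP, and the 8 largest called rises and falls (4 in lesser comparisons) whose higher group averaged 2 CPM or more and whose libraries did not overlap. Members beyond the rule include ZNF428 (level per kb), ZNF554 (first block) and ZNF114 (near absence from LNCaP). Further ones are ZNF568 and the others named for near absence from PC-3, and ZNF350, ZNF543, ZNF562 and ZNF606 in the closing part. All of these were chosen after their values were seen. Fingers and the KRAB pattern were searched in translated GENCODE 29 reading frames, and promoters come from RefSeq. Alternatives were DESeq2 1.42.0, other size factors, no filter, the compared groups alone, a replicate block, no mitochondrial genes, a length and GC trend, and each replicate left out.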

Additional observations from a re-analysis of the deposited data

Results flagged for a closer look

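Every genistein 20 µM library lay below and every baicalein 20 µM library above all untreated libraries in 8 of the 240 members tested (3.33%), where 364 of the 16985 genes tested (2.14%) did the same. Both drug groups were set against the same untreated libraries. In 6 of the 8 at least 1 drug's own comparison and that between the drugs passed the edgeR test. As these genes were picked by that separation and by those tests, their differences are given as a description with no p-value. The log2 difference of genistein against baicalein was -1.48 ± 0.18 for ZNF266, -1.13 ± 0.18 for ZNF121 and -0.94 ± 0.11 for ZNF350, a BRCA1 partner also called ZBRK1. It was -0.92 for ZNF562, -0.89 for ZNF543 and -0.97 for ZNF606.

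ZNF266 and ZNF121 were also called in each drug's own comparison with untreated cells, in opposite directions. ZNF121 was at 117, 105 and 103 CPM untreated, 56.3, 70.2 and 76.3 with genistein and 190, 120 and 139 with baicalein. Its fall with genistein lost its edgeR call with the replicate block and without any 1 of the 6 libraries but genistein replicate 3, with an adjusted p of up to 0.107. Its rise with baicalein lost the call without untreated replicate 2 or 3 or baicalein replicate 1, with the compared groups alone and without a filter, with an adjusted p of up to 0.136. The other 4 were called against untreated cells with baicalein but not with genistein, where ZNF350 gave -0.24 ± 0.10 (adjusted p = 0.148).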

How the results depend on the processing

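Where more than 1 member was called, the more frequent direction was the same under the alternatives run. Of 123 calls of named members 99 held in every setting, 24 were lost in at least 1 and 0 reversed. For genistein 20 µM against untreated, rises moved from 5 to 8 with the compared groups alone, 3 without a filter and 8 with the length and GC trend removed, and falls from 15 to 23, 11 and 31, and to 26 with DESeq2. For genistein 20 against 10 µM, rises moved from 4 to 8 with the trend removed, and falls from 10 to 17 with the compared groups alone, 5 without a filter and 26 with the trend removed. The single fall with baicalein 10 µM became 0 with the compared groups alone and with the replicate block. Falls for baicalein 20 against 10 µM moved from 30 to 17, and rises for genistein against baicalein at 20 µM from 14 to 8, with the compared groups alone. The cause was not tested.

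Leaving out each replicate gave 2 to 5 rises and 8 to 11 falls for genistein 20 µM, 82 to 111 and 27 to 32 for baicalein 20 µM, 0 to 1 falls for baicalein 10 µM, 2 to 6 rises and 5 to 8 falls for genistein 20 against 10 µM, and 36 to 41 and 114 to 119 for PC-3. For genistein 20 µM the lowest counts came without untreated replicate 2 or 3, and for genistein 20 against 10 µM without genistein 10 µM replicate 3. Every alternative and left-out library kept 77 of the 94 rises and 23 of the 32 falls with baicalein 20 µM, 29 of the 41 rises and 108 of the 120 falls in PC-3, but 2 of the 5 rises and 8 of the 15 falls with genistein 20 µM. It kept 2 of 4 rises and 4 of 10 falls for genistein 20 against 10 µM, 67 of 93 and 16 of 30 for baicalein 20 against 10 µM, and 8 of 14 and 73 of 100 for genistein against baicalein at 20 µM.

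Replicate numbers do not pair the libraries: deviations of same-numbered libraries correlated between -0.377 and 0.32, over 0.1 in 11 of 45 pairs, and 4 of 18 libraries correlated best with their own number. Differently numbered libraries of different groups correlated between -0.314 and 0.425, so some variation was shared across groups. Baicalein 10 µM replicate 1 gave 0.425 with baicalein 20 µM replicate 2 and 0.319 with PC-3 replicate 3. The source of this shared variation was not tested. With the replicate block 93 members rose and 31 fell with baicalein 20 µM, 6 and 12 with genistein 20 µM, and 37 and 119 in PC-3. In PC-3 the median of all genes shifted by -0.27 without a filter and by -0.19 with the trend removed or with DESeq2.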

Other observations

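Several members jumped between libraries of 1 group. The row of ZNF542P with identifier ENSG00000240225 was at 0.185, 22.6 and 19.1 CPM with baicalein 20 µM and at 22.7, 19.6 and 0.176 with baicalein 10 µM, while its second row, ENSG00000290720, was at 73.9, 85.3 and 118 with baicalein 20 µM. ZNF302 was at 148, 32.5 and 40.8 CPM with baicalein 20 µM. Of the 240 tested members, 127 (52.9%) were highest in baicalein 20 µM replicate 1 within that group, against 34.3% of all genes tested, and that library had the lowest mitochondrial share of the 3. Without it 85 members rose and 32 fell against untreated cells. In each other group too, the library with the lowest mitochondrial share was highest in more members than either other library. It was highest in 46.7% of members (33.0% of all genes) in untreated LNCaP and 50.8% (39.2%) with genistein 10 µM. The shares were 45.8% (31.4%) with baicalein 10 µM, 40.4% (32.8%) with genistein 20 µM and 47.9% (35.0%) in PC-3. The part of this in the group comparisons was not tested.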
